A study of Homo sapiens with 6 samples.

Results

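Aminoacyl-tRNA synthetases attach each amino acid to its matching tRNA, the step that makes the genetic code readable by the ribosome. Human cells hold a cytosolic set and a mitochondrial set, and most amino acids have a separate nuclear gene for each compartment. In the cytosol, several synthetases form the multi-synthetase complex around the scaffold proteins AIMP1, AIMP2 and EEF1E1 (also called AIMP3). Many cytosolic synthetase genes are also known targets of ATF4, the transcription factor that is translated when amino acids run short. The genes described here are 38 symbols chosen by name from a table of 23698 gene rows. The 22 cytosolic members are 19 synthetase genes and the 3 scaffolds, and the 16 mitochondrial members are the symbols that end in 2, AIMP2 excepted. All 38 were found and all 38 passed the filter on low counts, which kept 13668 genes.

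The 6 poly(A) RNA-seq libraries came from MV4-11, an established acute myeloid leukaemia line with the FLT3 internal tandem duplication. In 3 libraries cells carried a hairpin RNA that targets PRMT5, delivered by lentivirus, and in 3 they carried a scrambled vector. PRMT5 places symmetric dimethyl marks on arginine in histones and splicing proteins. All cells in both groups were stably transduced, and the labels name neither the hairpin sequence nor separate cultures for the replicates, so the p-values cover the variation from library to library, part or all of which may be technical. The libraries held 16408484 to 19077106 estimated counts, and a member held between 67.0 and 23551 counts in a library.

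The myeloid markers FLT3, CD33, CSF1R, LYZ, MPO, SPI1 and ITGAM were all detected, with a summed level of 1077 to 2087 CPM (read counts scaled to library size with TMM factors) in the knockdown and 780 to 1809 CPM in the control libraries. The T cell markers CD2 and CD3E and the erythroid markers HBB and HBA1 were at 0 in every library. The summed T cell list reached at most 0.970 and 0.285 CPM, the erythroid marker EPOR 16.1 to 20.5 and 14.7 to 31.2 CPM, and the B cell list, mainly PAX5, 11.9 to 13.5 and 6.55 to 15.95 CPM, in knockdown and control libraries in that order. PRMT5 itself was at 103, 71.6 and 53.0 CPM in knockdown 1, 2 and 3. Its control values were 133 (control 1), 53.2 (library labelled control 2) and 158 CPM (control 3). The level of 53.2 CPM lies within the knockdown group and goes against the label, so log2 differences are also given without that library. The PRMT5 log2 difference, knockdown minus control, came to −0.60 (SE 0.43, edgeR adjusted p = 0.926), and −0.94 without the library labelled control 2. Knockdown 3 and control 3 were the closest libraries in the series: the median size of their log2 difference was 0.0964 over all tested genes and 0.0718 over the synthetase genes, although PRMT5 was lower in knockdown 3 by a log2 difference of −1.58. The library labelled control 2 stood apart over the whole table: it held the lowest value of 36.7% and the highest of 34.4% of all tested genes. Across these genes its log2 CPM correlated at 0.876 to 0.923 with the other 5 libraries, which correlated at 0.952 to 0.995 with each other (Pearson, over genes, which are not independent).

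Over all libraries together, most synthetase mRNAs had a higher fitted level in the knockdown group, but no single gene passed the test. Between knockdown 3 and control 3 only 9 of the 38 members were higher in the knockdown library. In bulk RNA, fewer cells of a kind and less of an mRNA per cell cannot be told apart. The log2 difference was above 0 for 29 of the 38 members (76.3%), against 49.9% of all tested genes. The members' median was 0.31, against −0.0007 for all tested genes. None of the 38 passed edgeR's quasi-likelihood test at an adjusted p under 0.05 (smallest adjusted p = 0.926), where 0% of all genes did. None had an unadjusted p under 0.05 either, where 0.571% of all genes did on the higher side and 1.2% on the lower side. An unadjusted p under 0.05 was given to 1 member by DESeq2, where 3.37% of all genes had one, and to 2 by limma-voom, where 0.856% did. Neither tool called a member. The 95% intervals of all 38 members spanned 0.

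**Figure D1:**
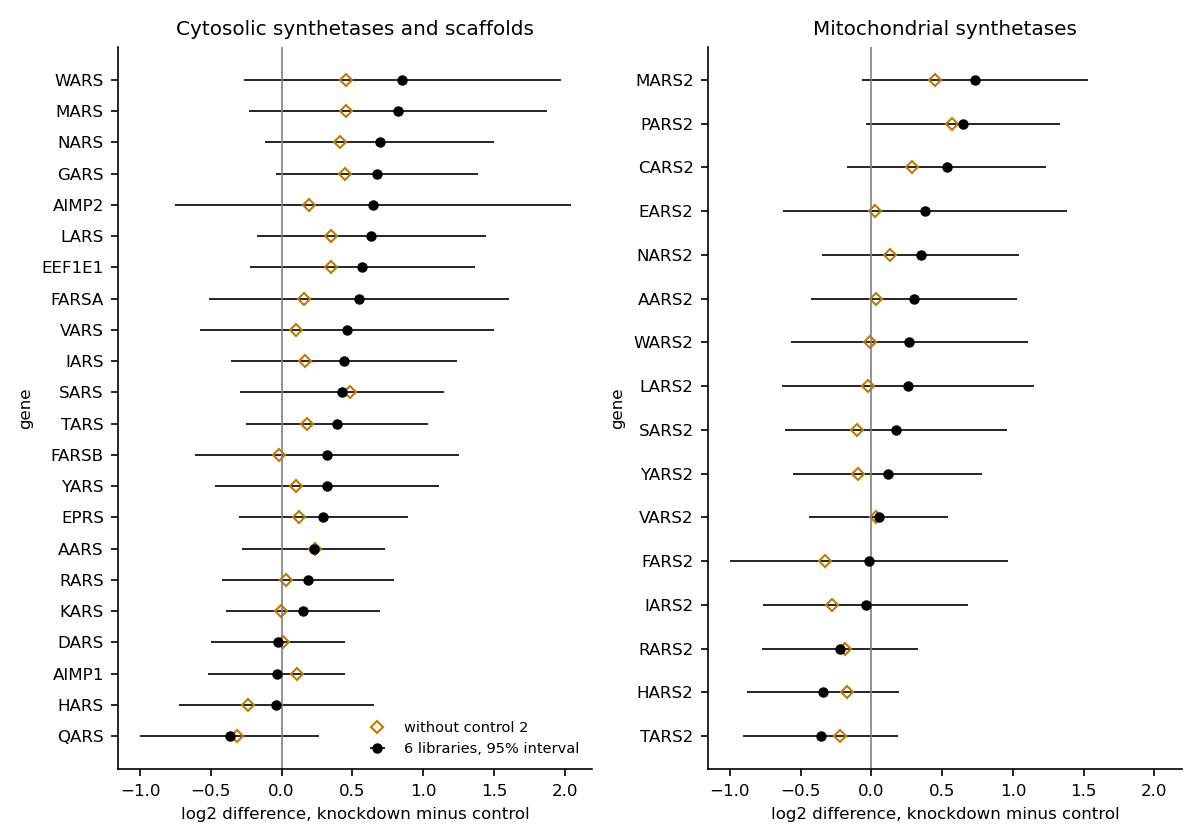
Log2 difference of knockdown minus control for each cytosolic (left) and mitochondrial (right) member, in order of size. Black points and bars are the edgeR estimate over all 6 libraries with its 95% interval, and open diamonds are the estimate without the library labelled control 2. All 38 intervals cross 0, and most diamonds lie nearer to 0 than the points, the mitochondrial ones clustering around a median of −0.02.

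The single values show which libraries carried this. Knockdown 1 held the highest value of 22 of 38 members, 17 of them cytosolic, against 18.5% of all tested genes. The library labelled control 2 held the lowest value of 29 of 38, against 36.7% of all tested genes. The summed share of all counts taken by the 38 genes was 0.953%, 0.769% and 0.783% in knockdown 1, 2 and 3. It was 0.710% and 0.811% in controls 1 and 3, and 0.389% in the library labelled control 2. Against controls 1 and 3, the library labelled control 2 was lower for 30 of the 38 members, with a median log2 difference of −0.81. Without that library the members' median knockdown difference was 0.10 (25 of 38 above 0, against 50.4% of all tested genes), and without both libraries numbered 2 it was 0.17.

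Between libraries with the same number, the members' median log2 difference was 0.41 in pair 1 (30 of 38 above 0, against 49.6% of all tested genes) and 0.77 in pair 2 (32 of 38, against 52.1%). In pair 3 it was −0.04, with 9 of 38 members above 0 (against 49.6%) and 29 of 38 within 0.1 of equality. The PRMT5 log2 differences of the same pairs were −0.36, 0.43 and −1.58, so in pair 2, where the synthetase median was highest, PRMT5 was higher in the knockdown library, against the labels. With the replicate number as a term in the model, 4 of 38 members had an unadjusted p under 0.05, where 3.19% of all genes did, and again no member was called (smallest adjusted p = 0.709).

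**Figure D2:**
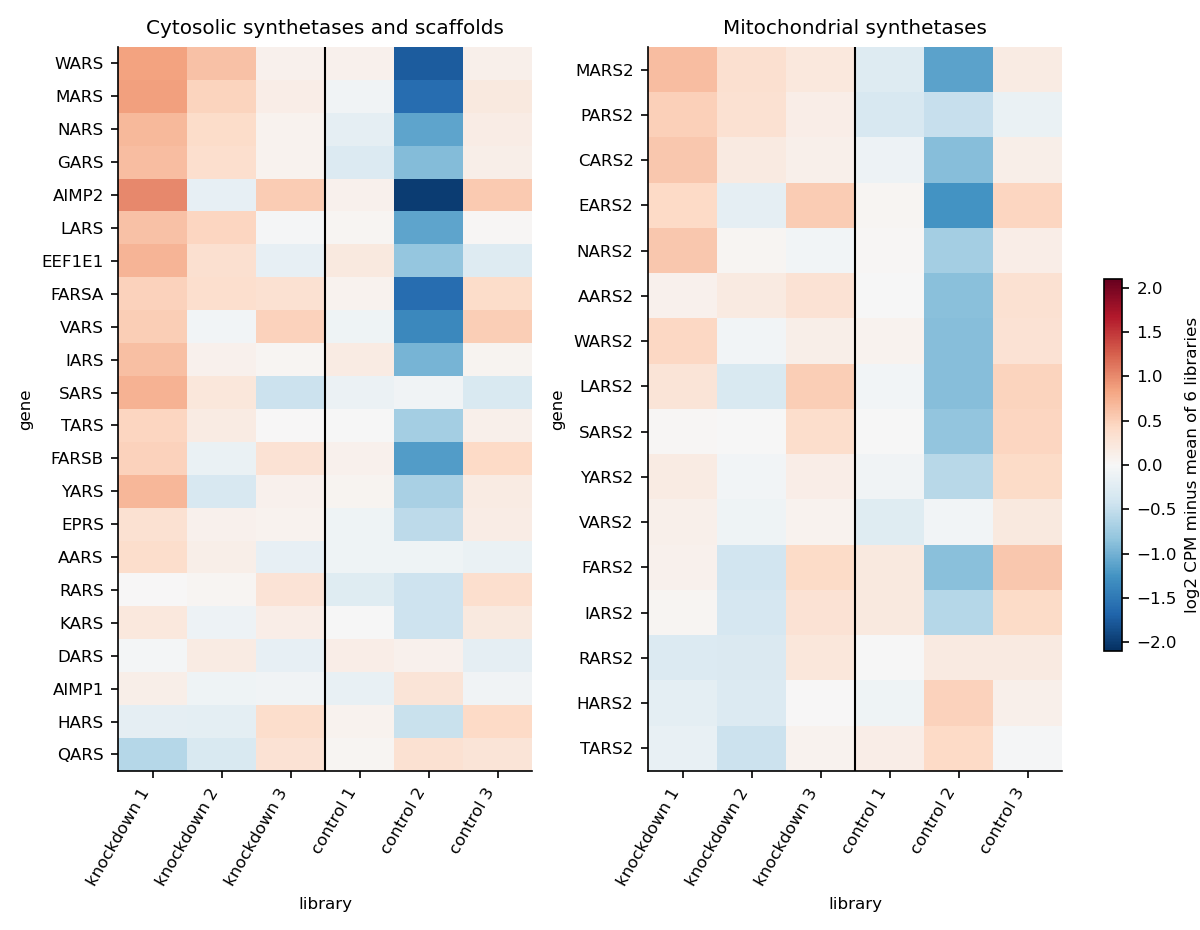
Level of each member in each library as log2 CPM minus the gene's mean over the 6 libraries, from blue (lower) to red (higher), with cytosolic genes left and mitochondrial genes right. The column marked control 2, the library labelled as that control, is the lowest for 29 of 38 genes, and the column of knockdown 1 is the highest for 22.

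Among the cytosolic members 18 of 22 had a log2 difference above 0, with a median of 0.41 (0.16 without the library labelled control 2, where 18 of 22 were again above 0). The 11 synthetases generally described as ATF4 targets were AARS, EPRS, GARS, IARS, LARS, MARS, NARS, SARS, TARS, WARS and YARS. All 11 had a log2 difference above 0, with a median of 0.44, and the highest value of all 11 was in knockdown 1. The other 8, DARS, FARSA, FARSB, HARS, KARS, QARS, RARS and VARS, had 5 above 0 and a median of 0.17. Without the library labelled control 2 the medians were 0.35 (11 of 11 above 0) and 0.003 (4 of 8 above 0). In pairs 1 and 2 the ATF4-target group had medians of 0.64 and 1.06 and the other group 0.24 and 0.41. In pair 3 both were close to 0, at −0.05 in each group, and 0 of the 11 ATF4-target genes were higher in knockdown 3. No member of either group passed the test, and the difference between the groups of genes was not tested.

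**Figure D3:**
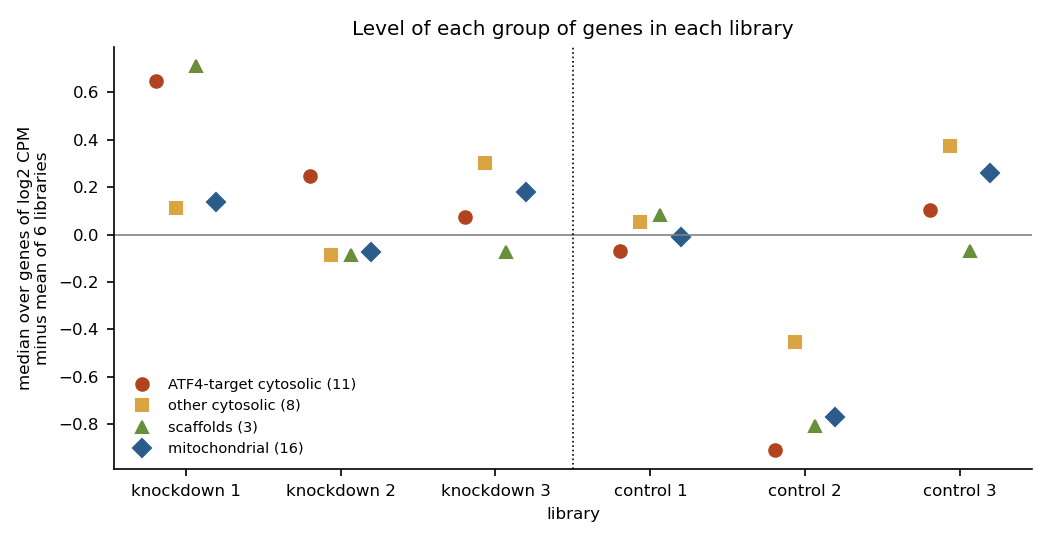
Median over the genes of each group of log2 CPM minus the gene's mean over the 6 libraries, for 11 ATF4-target cytosolic synthetases (circles), 8 other cytosolic synthetases (squares), 3 scaffold genes (triangles) and 16 mitochondrial synthetases (diamonds). The ATF4-target group lies at 0.65 in knockdown 1 and at −0.91 in the library labelled control 2, and the other cytosolic group at 0.11 and −0.45 in the same libraries.

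ATF4 binds the C/EBP-ATF response element, so the promoter windows of the members were searched for its core, written TGATGNAA, on both strands. RefSeq windows (GRCh38.p14, 250 bases before to 50 bases after an annotated start) were matched for 32 of the 38 members, 43 windows in all. The core was found in windows of 6 of 9 ATF4-target genes, 0 of 6 other cytosolic synthetases, 0 of 3 scaffolds and 1 of 14 mitochondrial genes. By window that was 46.2% for the ATF4-target genes, against 3.62% of all 35116 windows in the table. The group was formed from known ATF4 targets, so this contrast is no independent test and says nothing about these libraries. The 6 cytosolic stretches are shown as the matches of the ATF4-target group, and that of YARS2 as the only mitochondrial match. Each is given 5′ to 3′ in the direction of the element, and the capitals mark the 8 matching letters.
AARS (chr16:70289676-70289703, plus strand): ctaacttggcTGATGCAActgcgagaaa
GARS (chr7:30594835-30594862, minus strand): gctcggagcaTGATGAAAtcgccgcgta
IARS (chr9:92293693-92293720, plus strand): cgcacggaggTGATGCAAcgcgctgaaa
MARS (chr12:57488054-57488081, minus strand): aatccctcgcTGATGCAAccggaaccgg
NARS (chr18:57621805-57621832, minus strand): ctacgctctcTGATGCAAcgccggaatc
TARS (chr5:33440957-33440984, minus strand): ctggaccagcTGATGCAAtcgaaaggcg
YARS2 (chr12:32756077-32756104, minus strand): tccacactgcTGATGGAAaaattaagtt

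The letters TGATGCAA occurred in 5 of these 7 stretches. Read in the direction of the gene, the match began 4, 13 and 33 bases before the annotated start in MARS, IARS and GARS. It began 187 and 197 bases before the start in AARS and YARS2, and 2 and 14 bases after it in TARS and NARS. The direction of the gene is opposite to that of the printed element in AARS, GARS, IARS, MARS and TARS. The 6 cytosolic genes with a match had log2 differences of 0.23 to 0.83, and the 3 ATF4-target genes with a window and no match, EPRS, SARS and WARS, had 0.30 to 0.85. The MYC E-box CACGTG was in windows of IARS, AIMP2, CARS2, EARS2 and MARS2. By window that was 2 of 25 for the cytosolic members (8.0%) and 4 of 18 for the mitochondrial members (22.2%), against 7.26% of all windows. The mitochondrial count includes 2 overlapping windows of EARS2, and the shares were not tested. A match of letters is a description of the window and does not show binding.

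WARS charges tryptophan tRNA and is also known as an interferon-inducible gene. Its log2 difference over all 6 libraries was the largest of the cytosolic set, although SARS (0.48) lay above it (0.46) without the library labelled control 2, and MARS (1.16) above it (1.11) without control 3. It was at 553, 469 and 328 CPM in knockdown 1 to 3, against 327 (control 1), 90.8 (library labelled control 2) and 329 CPM (control 3). The log2 difference was 0.85 (SE 0.48, edgeR adjusted p = 0.926). Knockdown 1 and 2 lay above every control, and knockdown 3 was level with controls 1 and 3.

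MARS, the methionyl synthetase of the multi-synthetase complex, showed the same order of libraries. It was at 689.5, 525 and 419.5 CPM in knockdown 1 to 3, against 362 (control 1), 125 (library labelled control 2) and 436 CPM (control 3), a log2 difference of 0.83 (SE 0.45, and 0.45 without the library labelled control 2). The annotated exons of MARS overlap those of DDIT3, a stress gene on the opposite strand, over 13.3% of their length together with 2 other genes, and the use of strand in counting is not given in the sources used here. DDIT3 had 69.2, 46.2 and 18.8 CPM in knockdown 1 to 3, against 49.4 (control 1), 205 (library labelled control 2) and 19.6 CPM (control 3). It was highest in the library in which MARS was lowest, and the part of shared reads in either value was not tested.

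NARS, the asparaginyl synthetase, was at 536, 434 and 351 CPM in knockdown 1 to 3, against 291 (control 1), 155 (library labelled control 2) and 371 CPM (control 3). Its log2 difference was 0.69 (SE 0.35), or 0.42 without the library labelled control 2. LARS, the leucyl synthetase, which also acts as a leucine sensor for mTORC1, was at 521, 468 and 335 CPM, against 348 (control 1), 159 (library labelled control 2) and 346 CPM (control 3), a log2 difference of 0.63 (SE 0.35, and 0.35 without the library labelled control 2). In both genes knockdown 3 lay within the range of the controls.

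GARS and KARS each serve both compartments, since a single gene encodes the cytosolic and the mitochondrial enzyme for glycine and for lysine. GARS had the smallest p of the cytosolic set. It was at 487, 396 and 327 CPM in knockdown 1 to 3, against 256 (control 1), 165 (library labelled control 2) and 336 CPM (control 3), a log2 difference of 0.67 (SE 0.31, 95% interval −0.04 to 1.39, unadjusted p = 0.0603 and adjusted p = 0.926 in edgeR). Without the library labelled control 2 it was 0.45. The groups overlapped only through knockdown 3 and control 3. KARS was at 242, 192 and 230.0 CPM, against 206 (control 1), 153 (library labelled control 2) and 239 CPM (control 3), a log2 difference of 0.15 (SE 0.23) that was −0.004 without the library labelled control 2.

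Of the synthetases in the multi-synthetase complex, DARS, EPRS, IARS, KARS, LARS, MARS, QARS and RARS, 6 of 8 had a log2 difference above 0 (median 0.24, and 0.08 without the library labelled control 2). Of the 11 that work outside it, 10 did (median 0.43, and 0.18). QARS, the glutaminyl synthetase and a member of the complex, lay furthest the other way. It was at 159, 194 and 297 CPM in knockdown 1 to 3, against 247 (control 1), 300.1 (library labelled control 2) and 291 CPM (control 3). Its log2 difference was −0.37 (SE 0.27, edgeR adjusted p = 0.926) and −0.31 without the library labelled control 2. Knockdown 1, where most of the set was highest, held the lowest QARS value, and in pairs 1 and 2 QARS differed by −0.64 and −0.63. DARS, the aspartyl synthetase, was the steadiest cytosolic member, at 192 to 246 CPM with the PRMT5 hairpin and 192 to 240.0 CPM with the scrambled vector.

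Of the 3 scaffold genes 2 had a log2 difference above 0 (median 0.57), and all 3 did without the library labelled control 2. EEF1E1 was at 46.4, 35.7 and 25.2 CPM in knockdown 1 to 3, against 32.6 (control 1), 16.1 (library labelled control 2) and 23.5 CPM (control 3), a log2 difference of 0.57 (SE 0.34, and 0.35 without the library labelled control 2). AIMP2 had the widest spread of all 38 members, a range of 3.01 log2 units over the 6 libraries. It was at 122, 54.0 and 87.8 CPM, against 64.4 (control 1), 15.1 (library labelled control 2) and 89.4 CPM (control 3), and its log2 difference of 0.64 (SE 0.60) was 0.20 without the library labelled control 2. AIMP1 was at 117, 101 and 102 CPM, against 96.1 (control 1), 129.8 (library labelled control 2) and 103 CPM (control 3), a log2 difference of −0.04 (SE 0.21, and 0.11 without the library labelled control 2). The same control library thus held the lowest AIMP2 and the highest AIMP1 value of the series. Exons of AIMP2 overlap those of EIF2AK1 on the opposite strand over 28.9% of their length in the annotation. EIF2AK1 had 149, 138 and 212 CPM in knockdown 1 to 3, against 170.1 (control 1), 168 (library labelled control 2) and 212 CPM (control 3), and was lowest in knockdown 2.

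**Figure D4:**
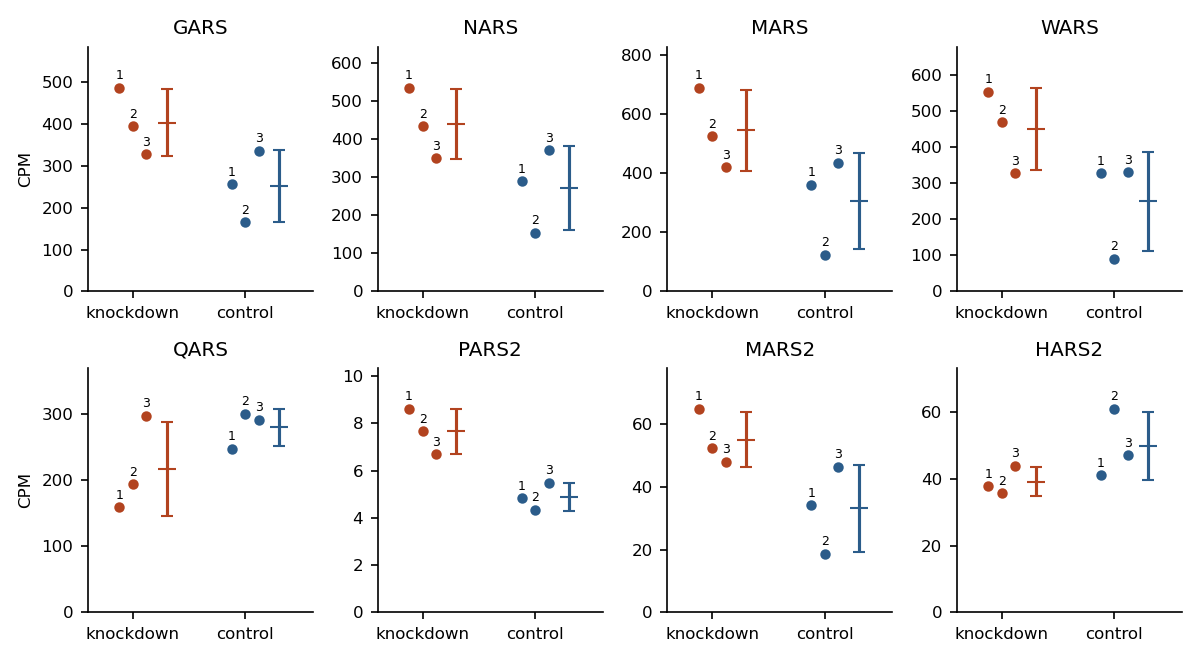
CPM of 8 members in each library, numbered by replicate, with knockdown in red and control in blue and the mean with its SD (n = 3) beside the points. Control point 2 is the library labelled control 2. PARS2 and MARS2 are the only 2 of the 38 genes whose groups do not overlap, and QARS and HARS2 were lower on average in the knockdown libraries.

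The mitochondrial synthetases had 11 of 16 log2 differences above 0 and a median of 0.22. Without the library labelled control 2 the median was −0.02 and 7 of 16 were above 0. By structural class, 7 of 9 class I genes (median 0.26) and 4 of 7 class II genes (median 0.17) were above 0, and the medians were −0.01 and −0.10 without that library. PARS2 and MARS2 were the only members whose groups did not overlap, 2 of 38 or 5.26%. Of all tested genes 6.24% had no overlap, 3.14% on the higher and 3.1% on the lower side, so the members' share lay near the background.

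PARS2, the mitochondrial prolyl synthetase, was the least abundant member, with 67.0 counts in its smallest library. It was at 8.62, 7.65 and 6.70 CPM in knockdown 1 to 3, against 4.82 (control 1), 4.34 (library labelled control 2) and 5.49 CPM (control 3). Its log2 difference was 0.65 (SE 0.29, unadjusted p = 0.0603 and adjusted p = 0.926 in edgeR). It was 0.57 without the library labelled control 2, and pair 3 differed by 0.28, the largest value of any member in that pair. MARS2, the mitochondrial methionyl synthetase, was at 64.9, 52.3 and 48.1 CPM, against 34.2 (control 1), 18.7 (library labelled control 2) and 46.5 CPM (control 3), a log2 difference of 0.73 (SE 0.34, and 0.45 without the library labelled control 2). Knockdown 3 and control 3 were almost level for MARS2.

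CARS2, the mitochondrial cysteinyl synthetase, followed with 93.3, 72.0 and 68.1 CPM in knockdown 1 to 3, against 58.8 (control 1), 33.8 (library labelled control 2) and 68.9 CPM (control 3), a log2 difference of 0.53 (SE 0.30, and 0.29 without the library labelled control 2). TARS2, the mitochondrial threonyl synthetase, lay the other way. It was at 38.5, 31.5 and 45.3 CPM, against 47.4 (control 1), 57.9 (library labelled control 2) and 42.5 CPM (control 3), a log2 difference of −0.36 (SE 0.23, and −0.22 without the library labelled control 2). HARS2, the mitochondrial histidyl synthetase, was lower in each pair, at 37.9, 35.7 and 43.9 CPM, against 41.1 (control 1), 61.0 (library labelled control 2) and 47.1 CPM (control 3), a log2 difference of −0.34 (SE 0.23, and −0.17 without the library labelled control 2). RARS2 had −0.22, and IARS2 and FARS2 had −0.04 and −0.02. The 8 other mitochondrial genes had log2 differences of 0.05 (VARS2) to 0.38 (EARS2), and without the library labelled control 2 all 8 lay between −0.10 and 0.13.

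HARS and HARS2 lie head to head on chromosome 5. Their RefSeq promoter windows share 184 bases, and the 84 bases between the annotated starts are shown because both genes are read outward from them (GRCh38.p14, plus strand, the direction of HARS2; no part is in capitals).
HARS to HARS2 (chr5:140691371-140691454): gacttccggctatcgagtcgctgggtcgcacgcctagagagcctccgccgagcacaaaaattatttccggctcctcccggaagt

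The 2 genes stood apart in the library labelled control 2, which held the lowest HARS value (39.2 CPM) and the highest HARS2 value (61.0 CPM) of the series. In the other libraries HARS was at 47.1, 46.8 and 70.0 CPM (knockdown 1 to 3) and at 57.0 (control 1) and 71.8 CPM (control 3), with a log2 difference of −0.04 (SE 0.29, and −0.24 without the library labelled control 2). The log2 ratio of HARS to HARS2 was 0.31 to 0.67 in the knockdown libraries and 0.47 and 0.61 in controls 1 and 3, against −0.64 in the library labelled control 2. Annotated exons of the genes overlap on opposite strands, over 8.38% of HARS together with WDR55 and 15.8% of HARS2 together with ZMAT2, and without strand reads from there cannot be told apart.

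For 12 amino acids the set holds a cytosolic and a mitochondrial gene, and their ratio within a library does not depend on the scaling between libraries, apart from the small prior count. The mean log2 ratio of cytosolic to mitochondrial mRNA was higher in the knockdown libraries for 11 of the 12, by a median of 0.39 over all 12 (10 of 12 and a median of 0.28 without the library labelled control 2). The difference was 0.78 for TARS over TARS2, 0.70 for WARS over WARS2 and 0.57 for VARS over VARS2, and −0.17 for AARS over AARS2. Without the library labelled control 2 the same differences were 0.41, 0.45, 0.06 and 0.18. The sign for AARS and most of the size for VARS thus rested on that library. The sign also turned for HARS over HARS2 (0.31, and −0.08 without that library) and MARS over MARS2 (0.17, and −0.03). Between knockdown 3 and control 3 the ratios went both ways. TARS over TARS2 was 3.21 in knockdown 3 against 3.40 in control 3, and WARS over WARS2 was 4.48 against 4.30. The NARS to NARS2 ratio was the only one whose groups did not overlap, at 3.02, 3.24 and 3.03 in the knockdown libraries, against 2.68 (control 1), 2.50 (library labelled control 2) and 2.92 (control 3). No share over other pairs of genes was computed beside this 1 of 12, so it is not read as a result for NARS. The ratios were not tested, and for 8 of the 12 the lowest value was in the library labelled control 2, which the plot of ratios shows as open squares.

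**Figure D5:**
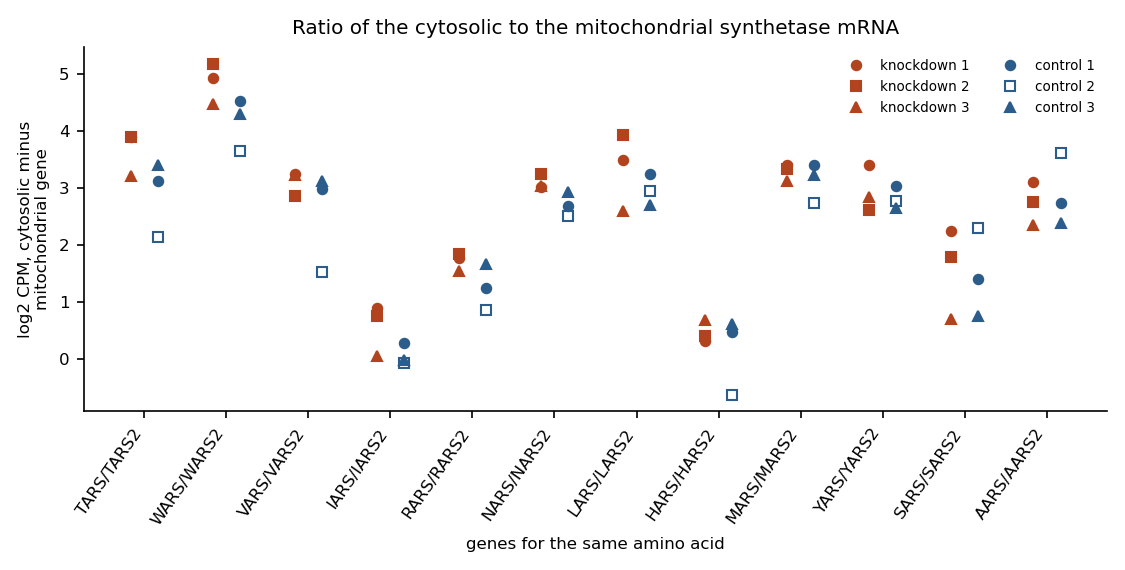
Log2 CPM of the cytosolic gene minus that of the mitochondrial gene for the same amino acid, for 12 pairs of genes, with knockdown libraries in red and control libraries in blue. Marker shape gives the replicate number and the open square is the library labelled control 2. For VARS and VARS2 that library lies at 1.52 and the other 5 between 2.85 and 3.24.

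Per kilobase of transcript, cytosolic members were more abundant than mitochondrial ones in both groups. The median of the members' mean levels was 92.7 CPM per kilobase in the knockdown and 78.8 in the control libraries for the cytosolic set, and 15.3 and 14.96 for the mitochondrial set. The highest levels ran in nearly the same order in both groups. EPRS, the fused glutamyl and prolyl synthetase, was the most abundant, at 220.4 ± 21.5 CPM per kilobase in the knockdown and 179.6 ± 43.3 in the control libraries (SD, n = 3 each). FARSA, a subunit of the phenylalanyl enzyme, followed at 204 ± 13.3 in the knockdown and 139.4 ± 79.0 in the control libraries. MARS (188 ± 46.8 and 106 ± 55.9) and AARS (160.3 ± 29.2 and 137 ± 2.16) came next. From each of these genes to the next, the ranges of mean ± SD overlapped in both groups. FARSB, which encodes the other subunit of the same enzyme, was at 29.1 ± 6.23 and 23.3 ± 11.3 CPM per kilobase. IARS2, at 92.6 ± 20.5 and 95.2 ± 31.0, was the most abundant mitochondrial member, above CARS2 at 41.4 ± 7.22 and 28.7 ± 9.62, and PARS2 was the lowest member at 3.26 ± 0.407 and 2.08 ± 0.245.

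Other genes of the same pathways also lay mostly above 0. Of 20 ATF4 amino acid genes 18 had a log2 difference above 0 (median 0.75, and 0.52 without the library labelled control 2), and none passed the test. SLC7A11, a cystine transporter subunit, CHAC1, a glutathione-degrading enzyme, and ASNS, asparagine synthetase, had 2.11 (SE 0.77), 2.21 (SE 0.93) and 1.15 (SE 0.51), and 1.70, 1.69 and 0.82 without that library. DDIT3, which is in the same list, lay lowest at −1.03 (SE 0.83), and at 0.38 without that library. In pair 3 only 3 of the 20 were above 0. Of 20 genes for mitochondrial tRNA maturation and translation factors 15 were above 0 (median 0.15, and 0.02 without the library labelled control 2), and none passed. PUS1, a pseudouridine synthase, TRNT1, which adds the tRNA CCA end, and MTO1, a tRNA wobble modification enzyme, had 0.76 (SE 0.51), 0.54 (SE 0.37) and 0.43 (SE 0.30), and 0.35, 0.22 and 0.17 without the library labelled control 2. Of 15 genes for cytosolic elongation and tRNA handling 11 were above 0 (median 0.12, and 0.14 without that library), and none passed. TRMT1, a tRNA methyltransferase, XPO5, an exportin, and ADAT1, a tRNA adenosine deaminase, had 0.68 (SE 0.35), 0.48 (SE 0.39) and 0.46 (SE 0.41), and 0.42, 0.16 and 0.13 without it.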

How the data were processed

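The 6 libraries were prepared from total RNA with poly(A) selection (labels' protocols). The authors deposited a table of estimated counts for each library, 1 value per gene and not scaled to depth. Most values are fractions of a count and were rounded to whole numbers here. TopHat2 (version 2), CASAVA (1.9), edgeR and the build hg19 appear in the submitters' processing notes without a role. How reads were counted, on which annotation and whether by strand, is not given in the sources used here, so overlapping and antisense genes can share reads. In GENCODE v29 (GRCh38), exons of 22 of the 38 members overlap another gene. The overlap covers over 10% of exon length for 8 members. These are SARS2 (57.0%), AIMP2 (28.9%), VARS2 (22.0%), EEF1E1 (18.7%), HARS2 (15.8%), MARS (13.3%), AIMP1 (11.6%) and WARS (10.6%).

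Genes kept by filterByExpr (minimum count 10) were tested over the whole table with edgeR 4.0.16 in R 4.3.3. The quasi-likelihood fit used TMM scaling and the group as its only term, and two-sided p-values were adjusted over 13668 genes (Benjamini-Hochberg, threshold 0.05). Log2 levels carry a prior count of 2. Exact permutation of 3 against 3 libraries goes no lower than 0.1 and was not used. Lengths are those of the longest RefSeq-linked coding transcript in GENCODE v29. The scripts were tested on simulated data.

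Members, lists and tests were chosen with earlier results of these data known. Any member may be named. Library values are given for the 5 smallest p-values and the 2 highest and 2 lowest differences per class, the scaffolds, GARS, KARS and WARS, and HARS with HARS2. Up to 3 genes with the smallest p are named per other list. DDIT3 and EIF2AK1 were singled out after their values were seen.

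Titles number the libraries 1 to 3 in both groups. Deviations from the group means of same-numbered libraries correlated over genes at 0.127, 0.394 and 0.566. Each is above 0.1, so they are called pairs, a pairing that comes from the values and not from the labels. Knockdown 2 and control 1, with different numbers, correlated at 0.164, above the 0.127 of pair 1. In log2 CPM itself, knockdown 2 correlated at 0.976 with control 1 and at 0.909 with the library labelled control 2. Pairs 1 and 2 are thus libraries of the same number and not an established match. Alternatives were other scalings and filters, DESeq2 1.42.0, limma-voom (limma 3.58.1), the replicate number as a block, and libraries left out.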

Additional observations from a re-analysis of the deposited data

How the results depend on the processing

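No gene of the table and none of the 38 members was called under any alternative run. The median over the 22 cytosolic members was 0.16 to 0.55 when single libraries were left out, that over the 11 ATF4-target synthetases 0.26 to 0.68, and that over the 8 other synthetases 0.003 to 0.38. The mitochondrial median was −0.02 to 0.51, and was below 0 without the library labelled control 2. That omission made the difference over 1.5 times smaller, or turned its sign, for 29 of 38 members, leaving out knockdown 1 for 17, and leaving out both libraries numbered 2 for 27. The number of genes at an unadjusted p under 0.05 was 33 without knockdown 1 and 1307 without control 3, where the smallest adjusted p was 0.524.

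Single genes changed sign, among them FARSB (0.32 over all 6 libraries), YARS (0.32), WARS2 (0.27) and LARS2 (0.26), and the cause was not tested. With total count scaling DARS had 0.021 and AIMP1 0.023, and with limma-voom FARS2 had 0.051. With the replicate number as a block FARS2 had 0.059, and the block changed no call (0 genes called, 436 at an unadjusted p under 0.05 against 242 without it). Without both libraries numbered 2, AIMP1 had 0.14, SARS2 −0.036 and YARS2 −0.030. With single libraries left out, the log2 difference ran from −0.12 to 0.051 for DARS, −0.017 to 0.66 for FARSB, −0.26 to 0.19 for HARS, −0.0037 to 0.30 for KARS, −0.0037 to 0.53 for YARS and −0.12 to 0.11 for AIMP1. Among mitochondrial genes it ran from −0.33 to 0.31 for FARS2, −0.28 to 0.16 for IARS2, −0.027 to 0.62 for LARS2, −0.10 to 0.50 for SARS2, −0.052 to 0.18 for VARS2, −0.011 to 0.52 for WARS2 and −0.10 to 0.40 for YARS2. With 3 libraries per group and a median SE of 0.33, the differences seen here were not separable from 0 at this depth and spread.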
